A study of Homo sapiens with 24 samples.

Results

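Loss of BRAT1 was examined in neural progenitors at day 14 of ventral differentiation, using the 12 libraries whose labels give that day out of 24 libraries in the series. H7 is an established human embryonic stem cell line. Of the 12 libraries, 6 came from BRAT1 knockout (KO) cells at day 14, with 3 biological replicates of each of 2 KO lines, and 6 came from control cells at day 14, with 3 biological replicates of each of 2 control lines. All 12 are H7 cells that went through the same ventral neural differentiation, and the labels do not say how the KO lines were made or whether each is 1 clone. The other 12 libraries are the same lines at day 0, as undifferentiated stem cells.

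BRAT1 is a protein that binds the INTS9 and INTS11 subunits of Integrator, the complex whose endonuclease cuts nascent RNA at small nuclear RNA genes, enhancers and promoter-proximal pause sites of coding genes. Variants on both copies of BRAT1 cause severe neurodevelopmental disease in people, which is why its loss is studied in neural cells. In ventral neural differentiation a sonic hedgehog signal leads anterior neural progenitors to switch on factors such as NKX2-1 and NKX2-2, while midbrain, hindbrain and neural crest fates use other factors such as PAX8, EN1, SOX10 and FOXD3.

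Libraries were made from poly(A) RNA with Click-Seq, in which azido nucleotides end cDNA synthesis at random and click chemistry attaches the adapter, and the values are whole-number counts per annotated feature. The 6 KO libraries held 2688218 to 3726227 counts and the 6 control libraries 2228736 to 3682807. Counts mostly read the strand opposite the named feature. Among 2365 pairs of a noncoding feature and a coding gene with exons opposite it, 63.0% had more counts under the noncoding name, and TALAM1, the transcript antisense to the abundant nuclear RNA MALAT1, took 9.65% of all counts against 0.0064% under MALAT1 itself. A gene is therefore given below as read through the feature on the other strand wherever 1 coding gene holds the opposite exons, and the feature's own name is stated. Levels are counts scaled to a library total of 1000000 (CPM), shown for each group as the lowest, median and highest of 6 libraries, and they compare groups for 1 feature and not 1 gene with another.

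Fold changes are log2 of KO over control with a standard error (SE), and a feature was called when the edgeR quasi-likelihood test gave a Benjamini-Hochberg adjusted p under 0.05 over all 11408 features tested. Of these, 2474 (21.7%) were called, 1256 (11.0%) higher in KO and 1218 (10.7%) lower in KO. Of the called features, 1425 (12.5% of those tested) changed at least 2-fold. The median log2 fold change of all features tested was 0.07. The KO and control libraries did not overlap for 542 features that were higher in KO (4.75%) and for 684 that were lower in KO (6.00%). For 2471 of the called features the means of both KO lines lay on the same side of the means of both control lines. The 3 libraries of a line share that line, so the p-values measure the spread between libraries of 2 lines per genotype and not between independent knockouts. In bulk libraries, fewer cells of a type and less RNA per cell cannot be told apart.

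The share of calls depended on what lies on the other strand. Among 3329 features tested that lie opposite a coding gene, 884 (26.6%) were called, of which 268 (8.05%) were higher in KO and 616 (18.5%) lower, with a median log2 fold change of -0.13. Among 4368 features with no exon opposite, 576 (13.2%) were called higher in KO and 201 (4.60%) lower, with a median of 0.28. Features within the body of another gene showed 259 higher and 81 lower of 1727, divergent neighbours 63 higher and 21 lower of 529, convergent neighbours 84 higher and 47 lower of 853, and features with no gene within 5000 bases 170 higher and 52 lower of 1259. The excess of higher calls was thus found in each of these 4 classes without an opposite exon, and the excess of lower calls opposite coding genes.

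**Figure D1:**
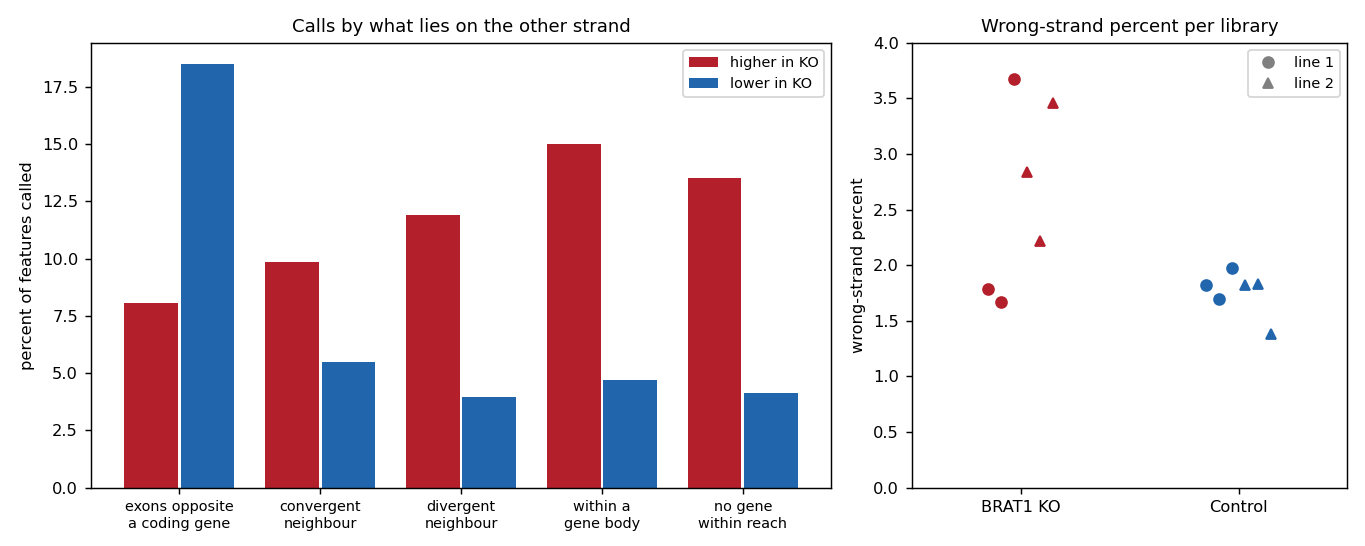
Left, percent of features called higher (red) or lower (blue) in BRAT1 KO by what lies on the other strand, with 18.5% lower opposite coding genes and more higher than lower calls in the other 4 classes. Right, the wrong-strand percent of each of the 12 day 14 libraries (counts under a coding gene as a percent of counts under the feature opposite it, median over 146 pairs), where 4 KO libraries lie above all 6 control libraries.

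One property of the libraries differed on average between the genotypes. Counts under a coding gene, as a percent of those under the feature opposite it (median over 146 abundant pairs), were 2.61 ± 0.85 in KO libraries and 1.75 ± 0.20 in control libraries (SD, n = 6 each), a difference of 0.85 with an exact two-sided permutation p of 0.0433. That test treats the 12 libraries as independent, although the 3 libraries of a line share it. Over the 19 pairs at 5 times the count minimum the difference was 0.13 (exact permutation p = 0.110). KO line 1 replicates A and B, at 1.78 and 1.67, lay within the control range of 1.38 to 1.98, and the other 4 KO libraries, up to 3.68, lay above it. With this percent as a covariate of the fit, 284 features with no exon opposite were called higher in KO and 155 lower, and 244 features opposite coding genes were called higher and 351 lower. Its part in the results read under a gene's own name was not tested beyond that fit. Values with the covariate stand beside the lists and beside those genes for which the call or its size is at issue.

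The cells were checked against marker genes. The neural progenitor markers SOX1, SOX2, PAX6, NES and HES5 summed under their own names to 379, 463 and 590 CPM in KO libraries, against 172, 220 and 307 CPM in control libraries. The pluripotency markers POU5F1, NANOG, DPPA4, TDGF1 and L1TD1 summed to 7.81, 17.6 and 26.3 CPM in KO, against 5.66, 14.0 and 23.3 CPM in controls. SOX17, KRT5 and S100B, which mark endoderm, basal epithelium and glia, had no count in any of the 12 libraries. Under own names the progenitor sums did not overlap between the groups and the pluripotency sums did. From the other strand only PAX6 of the 5 progenitor markers was read, through ELP4 and PAUPAR. These 2 features summed to 17.9, 78.9 and 149 CPM in KO and 125, 180 and 197 CPM in controls, with overlap. The 5 glial markers summed to 60.9, 77.5 and 88.6 CPM in KO, against 31.9, 34.1 and 39.2 CPM in controls, without overlap. Most of that sum stood under the name GFAP, at 57.7, 67.4 and 83.5 CPM in KO and 28.3, 32.6 and 37.7 CPM in controls. GFAP is an intermediate filament of astrocytes and radial glia. The feature gave 1.06 ± 0.17 (adjusted p = 3.48e-05), and 1.06 with the covariate. The exons opposite it belong to FAM187A. The feature FAM187A, which would read GFAP from the other strand, had no count in any of the 12 libraries. At day 0 the GFAP feature averaged 38.4 CPM in KO and 11.9 CPM in controls. These counts are therefore not taken as GFAP mRNA. The 5 ventral neural markers NKX2-1, NKX2-2, NKX6-1, FOXA2 and SHH summed to 49.25, 62.6 and 127.5 CPM in KO and 11.3, 19.9 and 30.3 CPM in controls, without overlap. The 5 neuron markers summed to 50.3, 74.0 and 130 CPM in KO and 16.2, 38.0 and 49.5 CPM in controls, and the 5 neural crest markers to 46.7, 70.7 and 91.0 CPM in KO and 81.7, 117 and 134 CPM in controls. The 5 non-neural ectoderm markers summed to 4.09, 9.71 and 37.5 CPM in KO and 0.45, 1.02 and 6.14 CPM in controls, and these overlapped. The part of such cells in the results below was not tested.

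BRAT1 itself (chr7:2537877-2555727, GRCh38) has no annotated exon opposite it, and its counts were lower in every KO library. The 3 libraries of KO line 1 had 11.2, 7.66 and 16.9 CPM and those of KO line 2 had 86.8, 71.2 and 83.3 CPM, against 186 to 317 CPM in the 6 control libraries. That is a log2 fold change of -2.47 with an SE of 0.57 and an adjusted p of 0.0111. All 6 KO libraries lay below all 6 control libraries, and KO line 1 lay below KO line 2. Because the counts mostly read the opposite strand, they do not by themselves check the BRAT1 mRNA. At day 0 the same feature averaged only 1.69 CPM in KO and 0.66 CPM in controls. The day 14 difference is therefore not taken as a check of the knockout. The head-to-head neighbour IQCE reached only 13.4 CPM in KO and 5.70 CPM in controls. The call was lost when counts were summed per line (adjusted p = 0.354) and without either control line (adjusted p = 0.0914 and 0.0834).

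Transcription factor genes of the anterior and ventral forebrain were higher in KO. The gene lists here and below were chosen with earlier results of these data known, so their counts are no independent support. Their counts stand beside 8.05% higher and 18.5% lower over all features opposite coding genes. Under own names they stand beside 11.0% and 10.7% over all features. Of 31 genes listed as forebrain or telencephalon factors, 4 were tested through the feature opposite and all 4 were called higher. The median log2 fold change of these 4 was 2.62. Under own names 14 were tested, of which 11 were called higher and 1 lower, with a median of 2.55; with the wrong-strand covariate 10 were called higher. In the fit of all 24 libraries these counts were 2 of the opposite readings and 5 of the own names.

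FEZF1, a zinc finger repressor of the anterior forebrain and hypothalamus, was read through FEZF1-AS1 (chr7:122303658-122310077, whose exons overlap those of FEZF1). It had 293, 383 and 480 CPM in KO, against 13.0, 16.4 and 20.5 CPM in controls, and its log2 fold change was 4.53 ± 0.17 (adjusted p = 2.61e-17). Counts under FEZF1 itself, at 122, 185 and 227 CPM in KO and 5.30, 11.4 and 19.3 CPM in controls, gave 3.88 ± 0.26. On neither strand did a KO library overlap a control library. LHX2, which specifies cortex and eye field, rose by 2.69 and SP9, a factor of ventral telencephalic interneurons, by 0.94 on the log2 scale.

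The DLX genes, homeobox genes of ventral forebrain and hypothalamic GABAergic progenitors, had counts almost only in KO libraries. DLX1 had 29, 59.0 and 88.2 CPM in KO, against 0, 0.16 and 0.59 CPM in controls (adjusted p = 7.57e-12). DLX5 had 11, 19 and 53.4 CPM in KO and 458 counts in all, against 2 counts over the 6 control libraries (adjusted p = 1.2e-09). DLX2 had 4.08, 11.4 and 24.7 CPM in KO and no count in any control library; against a floor of 3 counts over the control group it was at least 83.2-fold higher (adjusted p = 3.94e-07). FEZF2, the paralogue of FEZF1 that acts in deep-layer cortical and hypothalamic neurons, had 10.4, 28.8 and 46.2 CPM in KO and at most 1.26 CPM in controls (5.52 ± 0.48, adjusted p = 1.82e-09). These 4 genes have no annotated exon opposite them, so the strand their counts come from is not named, and the calls also passed with the wrong-strand covariate and in the fit of all 24 libraries. SIX3, OTX2, EMX2 and OTX1, further anterior factors, were called higher under their own names, by 3.34, 2.24, 1.30 and 0.98 on the log2 scale.

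**Figure D2:**
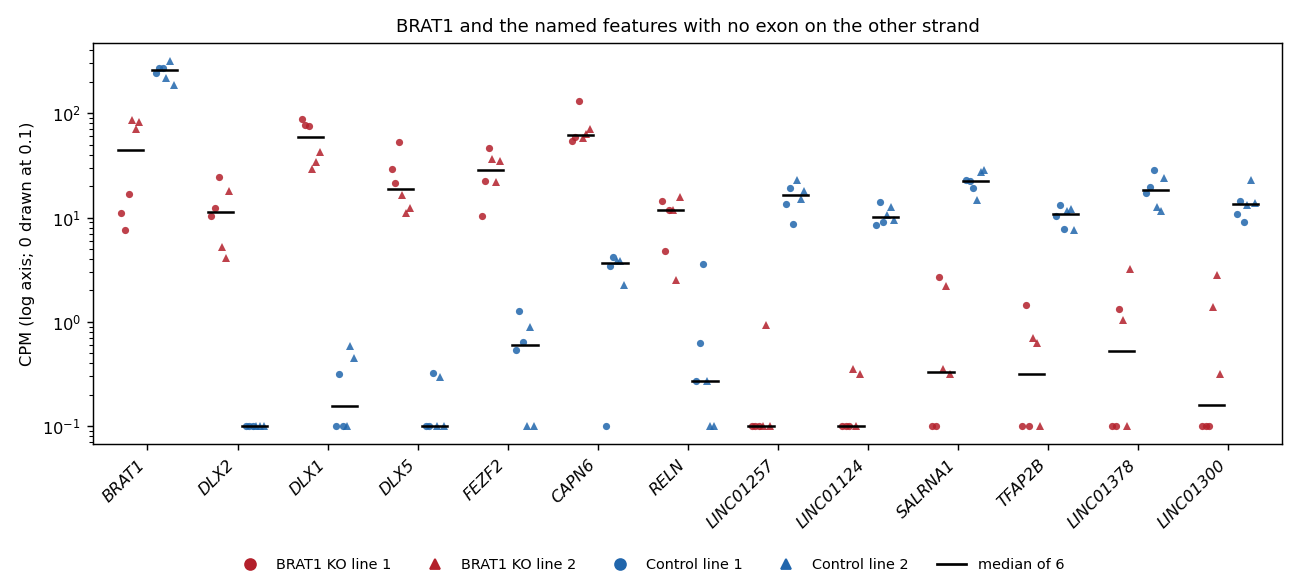
CPM on a log axis (a value of 0 is drawn at 0.1) of BRAT1 and of the 12 features with no exon on the other strand that showed the largest called changes, in 6 BRAT1 KO (red, left) and 6 control (blue, right) libraries, circles for line 1 and triangles for line 2, bars at the median. DLX1, DLX2 and DLX5 reach 88.2, 24.7 and 53.4 CPM in KO and are at or near 0 in controls, and BRAT1 shows the 2 KO lines apart.

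Of 19 hypothalamic and ventral forebrain genes, 5 were tested through the feature opposite, with 3 called higher and 1 lower. NKX2-1, the homeobox factor that defines hypothalamic and medial ganglionic eminence progenitors, was read through NKX2-1-AS1 (chr14:36519278-36523016). It had 203, 270 and 307 CPM in KO, against 7.87, 13.2 and 28.1 CPM in controls (4.15 ± 0.22, adjusted p = 8.22e-13). FOXD1, a forkhead factor of the hypothalamus, had 90.4, 143 and 177 CPM in KO through FOXD1-AS1, against 30.7, 49.2 and 59.1 CPM in controls (1.55 ± 0.20, adjusted p = 1.54e-06). NKX2-2, the hedgehog-induced ventral factor, was abundant in both groups, at 1252, 1537 and 1776 CPM in KO through NKX2-2-AS1 and 401, 703 and 946 CPM in controls (1.13 ± 0.15, adjusted p = 1.85e-06). For these 3 genes no KO library overlapped a control library. NKX6-2, a ventral factor of more caudal neural tube as well, went the other way through INPP5A, with 72.2, 106 and 134 CPM in KO and 250, 329 and 486 CPM in controls (-1.75 ± 0.16, adjusted p = 4.51e-09).

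Under own names 6 genes of the list were tested and 4 called higher. NKX2-1 itself had 10.6, 21.7 and 46.4 CPM in KO and at most 2.26 CPM in controls, and FOXB1, a mammillary and diencephalic forkhead factor, had 59.8, 107 and 164 CPM in KO and 15.7, 28.2 and 40.7 CPM in controls (1.79 ± 0.22; 1.34 with the covariate). NKX2-4 rose by 3.97 and NKX2-2 by 1.32 on the log2 scale. The features opposite POU3F4 and LHX1 were chosen after their values were seen. POU3F4, a POU factor of hypothalamus and inner ear, was read through ENSG00000279437 at 1203, 1277 and 1433 CPM in KO and 265, 273 and 304 CPM in controls (2.22 ± 0.11, adjusted p = 2.5e-14). LHX1, a LIM homeobox factor, was read through ENSG00000276707 at 75.0, 110 and 147 CPM in KO and 13.1, 22.3 and 35.6 CPM in controls (2.25 ± 0.22, adjusted p = 1.24e-08).

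Other genes among the largest rises opposite coding genes included NKX1-2, GRM3 and BHLHE22. NKX1-2, a homeobox gene of early neural plate and caudal progenitors in mouse, was read through ENSG00000271434 at 37.0, 63.5 and 93.4 CPM in KO and 0.27, 1.74 and 7.18 CPM in controls (4.51 ± 0.53, adjusted p = 2.97e-05). GRM3, a metabotropic glutamate receptor gene, had 75.6, 140 and 203 CPM in KO through GRM3-AS1 and 11.1, 14.2 and 22.4 CPM in controls (3.12 ± 0.26). BHLHE22, a neuronal basic helix-loop-helix repressor, had 7.22, 20.8 and 28.8 CPM in KO and 1.29, 2.31 and 7.24 CPM in controls, and here the lowest KO and highest control library met (2.61 ± 0.43, adjusted p = 5.97e-05). The feature METAP1D, opposite SLC25A12, rose by 4.30 on the log2 scale, with a median of 12.2 CPM in KO and 0.29 CPM in controls. Its span (chr2:171999583-172082430) overlaps that of SLC25A12 (chr2:171784370-171999859) only at the ends. At day 0 METAP1D averaged 0 CPM in KO and in controls. Its counts are therefore not taken as SLC25A12 mRNA, and their source was not tested. Further rises of this set were TAL1 (3.67), SCUBE1 (3.30), MYT1L (2.79), SORBS2 (2.74) and MAPK10 (2.73), as log2 fold changes. MYT1L is a neuronal identity factor and MAPK10 a neuronal stress kinase.

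**Figure D3:**
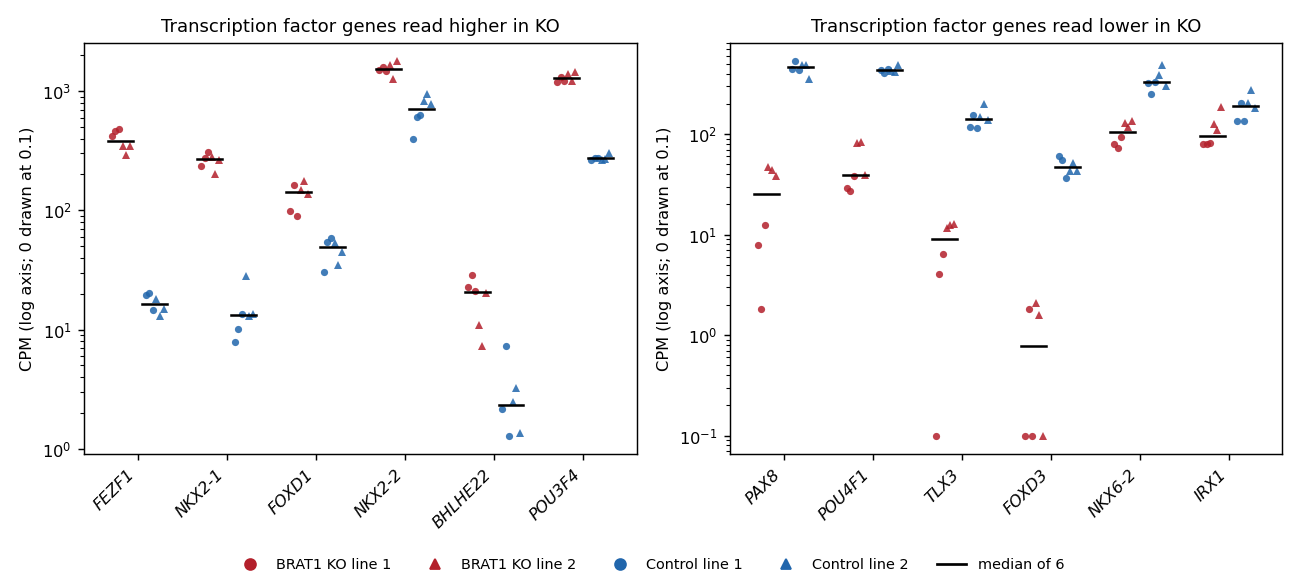
CPM on a log axis (a value of 0 is drawn at 0.1) of transcription factor genes read through the feature on the other strand, in 6 BRAT1 KO (red, left of each pair) and 6 control (blue, right) libraries, circles for line 1 and triangles for line 2, bars at the median. FEZF1 and NKX2-1 lie near 383 and 270 CPM in KO and near 16.4 and 13.2 CPM in controls, while PAX8 and POU4F1 lie near 25.1 and 38.8 CPM in KO and near 467 and 431 CPM in controls.

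Several genes of the midbrain, hindbrain and neural crest were lower in KO. Of 18 midbrain-hindbrain genes, 3 were tested through the feature opposite and all 3 were called lower, beside 18.5% of all features opposite coding genes; 1 was called both in the fit of all 24 libraries and with counts summed per line. Under own names 4 were tested, of which 2 were called lower and 1 higher. PAX8, a paired-box factor of the midbrain-hindbrain boundary and otic placode, was read through PAX8-AS1 (chr2:113211522-113276581). It had 1.82, 25.1 and 46.9 CPM in KO, against 349, 467 and 529 CPM in controls (-4.20 ± 0.58, adjusted p = 0.000486); the call was lost with counts summed per line (adjusted p = 0.186). The KO lines averaged 7.33 CPM in line 1 and 42.8 CPM in line 2. IRX1, a homeobox factor read through ENSG00000259603 and named after its values were seen, had 78.8, 95.6 and 184 CPM in KO and 134, 192 and 274 CPM in controls, and the groups overlapped (-0.80 ± 0.20, adjusted p = 0.00508). MEIS2 fell by 0.53 through the feature opposite and rose by 0.80 under its own name, both on the log2 scale; the own-name call was lost with the covariate (0.61, adjusted p = 0.0634). EN1 and WNT1, boundary genes with no exon opposite, were at 0, 1.15 and 1.88 CPM and 0.74, 1.60 and 3.22 CPM in KO, against 3.59, 8.03 and 9.55 CPM and 4.09, 7.14 and 18.0 CPM in controls, and both were called lower, also with the covariate (-3.99 for EN1 and -3.02 for WNT1).

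HOXB3, a hindbrain HOX gene whose counts share exons with HOXB-AS1, averaged 2.31 CPM in KO line 1 and 83.3 CPM in KO line 2, against 355 ± 101 CPM in controls (SD, n = 6; log2 fold change -3.08 ± 0.92, adjusted p = 0.0361). All 6 KO libraries lay below the controls for HOXB3, but the call was kept in only 10 of 25 alternative fits and lost with the covariate (-4.04, adjusted p = 0.0908). POU4F1, a POU factor of sensory and midbrain neurons, had 27.4, 38.8 and 83.8 CPM in KO through ENSG00000271776 and 403, 431 and 492 CPM in controls (-3.14 ± 0.27, adjusted p = 1.25e-06). TLX3, a selector of glutamatergic neurons of the dorsal spinal cord and hindbrain, had 0, 8.99 and 12.7 CPM in KO through ENSG00000275038 and 116, 142 and 198 CPM in controls (-4.21 ± 0.46, adjusted p = 5.8e-05). POU4F1 and TLX3 libraries did not overlap between the groups.

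In the neural crest list, FOXD3, an early crest and stem cell forkhead factor, had 0, 0.78 and 2.10 CPM in KO through FOXD3-AS1 and 36.2, 47.3 and 60.3 CPM in controls (-5.72 ± 0.48, adjusted p = 9.05e-09). It was the 1 feature called of 5 that read crest genes from the other strand. Under own names 9 were tested, with 3 lower and 2 higher, and neither of the higher calls passed with the covariate, where 3 were called lower. TFAP2B, an AP-2 factor of crest, had 0, 0.31 and 1.46 CPM in KO and 7.63, 10.9 and 13.2 CPM in controls, and SOX10, a crest and glial factor, had 0.74, 10.7 and 20.0 CPM in KO and 48.0, 74.8 and 80.4 CPM in controls (-2.85 ± 0.46, adjusted p = 0.000566). NGFR, a receptor of migrating crest, was higher under its own name by 1.00, a call that was lost with the covariate (0.77, adjusted p = 0.0621), with counts summed per line (adjusted p = 0.0587) and in the fit of all 24 libraries (adjusted p = 0.804), while the 2 features that read it from the other strand gave -0.25 and -0.09 and passed no test. Of dorsal patterning genes, GDF7, a roof plate ligand, was lower through ENSG00000270100. It had 0, 1.59 and 6.27 CPM in KO and 7.60, 12.0 and 15.5 CPM in controls. The GDF7 call was lost with the covariate (-1.56, adjusted p = 0.18). ZIC4 was lower by 1.34 under its own name (log2 fold change -1.34). BMP7 was called higher by 1.06 under its own name in 9 of 25 alternative fits only, and with the covariate it gave 0.60 (adjusted p = 0.405).

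Neuronal genes moved in both directions. Of 11 features that read a gene of the neuron list from the other strand, 5 were called higher and 4 lower. These stand beside 8.05% and 18.5% of all features opposite coding genes. NCAM1, a neural adhesion molecule, was higher through both of its features, by 1.56 ± 0.22 and 0.96 on the log2 scale. GAD1, the GABA-synthesising enzyme, was higher by 2.14 through ENSG00000235934, and GAD1 and GAD2 under their own names by 0.79 and 1.94. SLC17A6, the vesicular glutamate transporter of subcortical neurons, was lower through SLC17A6-DT, at 6.70, 11.7 and 19.2 CPM in KO and 34.6, 38.7 and 47.8 CPM in controls (-1.76 ± 0.25, adjusted p = 7.98e-06). NEFL and PRPH, neurofilament and peripheral neuron intermediate filament genes, fell by 0.87 and 1.17 on the log2 scale. NEUROD1, a proneural factor with no exon opposite, had 0, 0.34 and 2.68 CPM in KO and 7.11, 11.8 and 16.9 CPM in controls (-3.76 ± 0.60, adjusted p = 3.68e-05; -5.13 with the covariate). In these libraries the GABAergic genes GAD1 and GAD2 were thus higher and the glutamatergic transporter gene lower.

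Under own names 9 of 20 neuron genes tested were called higher, beside 11.0% of all features, and 7 with the covariate. The edgeR fit of all 24 libraries called 0 of them, although 4 had an unadjusted p under 0.05 there; DESeq2 on the 12 libraries called 9. DCX, a microtubule protein of migrating neurons, had 14.5, 27.3 and 63.3 CPM in KO and 1.91, 9.00 and 13.0 CPM in controls (1.98 ± 0.38; 1.13 with the covariate). Progenitor genes read under own names showed 7 higher of 19 tested, beside 11.0% of all features, and 4 with the covariate. The edgeR fit of all 24 libraries called 0 of these, though 4 had an unadjusted p under 0.05; on the 12 libraries DESeq2 called 6. NES, an intermediate filament of neural progenitors, had 215, 256 and 346 CPM in KO and 59.2, 106 and 176 CPM in controls (1.30 ± 0.19; 1.12 with the covariate). HES5, a Notch effector, had 37.6, 69.9 and 109 CPM in KO and 7.18, 22.1 and 32.4 CPM in controls (1.78 ± 0.27; 1.17 with the covariate). Vimentin, an abundant filament of progenitors read from the other strand through VIM-AS1 and ENSG00000234961, which were named after their values were seen, gave -0.27 ± 0.11 and -0.33 ± 0.13 with adjusted p of 0.0763 and 0.0678. PAX6, read through ELP4, averaged 25.6 CPM in KO line 1 and 127 CPM in KO line 2, against 164 ± 31.5 CPM in controls (SD, n = 6), and was not called (-1.13 ± 0.51, adjusted p = 0.143). Of the 6 features that read 4 progenitor genes from the other strand, 1 was called higher, the feature opposite CDH2 (0.73), and the median log2 fold change was -0.30.

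Hedgehog pathway genes read from the other strand were called lower in 4 of 7 features, for 3 genes, beside 18.5% of all features opposite coding genes, and in 1 feature with the covariate. The edgeR fit of all 24 libraries called 0 of the 7, though 3 had an unadjusted p under 0.05; on the 12 libraries DESeq2 called 4. Under own names 10 were tested, with 1 higher and 1 lower. PTCH1 encodes the hedgehog receptor and is itself switched on by hedgehog signalling. Through ENSG00000271155 (chr9:95506235-95507636) it had 582, 810 and 1157 CPM in KO, against 1275, 1447 and 1510 CPM in controls (-0.76 ± 0.16, adjusted p = 0.00149; -0.74 with the covariate, adjusted p = 0.0621). The KO lines averaged 607 and 1089 CPM, and both lay below every control library. HHIP is a hedgehog-binding inhibitor that the pathway also induces. Through HHIP-AS1 it had 16.0, 73.8 and 147 CPM in KO and 277, 288 and 340 CPM in controls (-1.90 ± 0.48, adjusted p = 0.0180). The HHIP-AS1 call was lost with the covariate (adjusted p = 0.107) and with counts summed per line (adjusted p = 0.33). It was also lost without either control line (adjusted p = 0.112 and 0.122). The second feature that reads HHIP was lost with the covariate (adjusted p = 0.155). CDON, a hedgehog co-receptor, had 23.1, 36.3 and 53.4 CPM in KO through VSIG10L2 and 59.7, 80.5 and 84.8 CPM in controls (-1.05 ± 0.19, adjusted p = 0.000148). VSIG10L2 was the 1 feature of this list still called lower with the covariate (-1.36, adjusted p = 0.000107). Of floor plate genes, 3 features were tested from the other strand, with 2 higher and 1 lower, and 9 own names, with 2 higher. FERD3L was higher by 1.93 and SPON1 by 0.50 through the feature opposite, and FOXA2 gave 0.51 ± 0.36 with an adjusted p of 0.338. SHH, the sonic hedgehog ligand, had 2.86, 15.0 and 21.7 CPM in KO and 0, 0.31 and 1.89 CPM in controls under its own name, without overlap. SHH was not among the features tested.

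The 250 bases before the RefSeq start of PTCH1 (chr9:95509267-95509516, minus strand, GRCh38.p14) are shown because they hold the GLI motif TGGGTGGTC of hedgehog target genes, in capitals.
PTCH1: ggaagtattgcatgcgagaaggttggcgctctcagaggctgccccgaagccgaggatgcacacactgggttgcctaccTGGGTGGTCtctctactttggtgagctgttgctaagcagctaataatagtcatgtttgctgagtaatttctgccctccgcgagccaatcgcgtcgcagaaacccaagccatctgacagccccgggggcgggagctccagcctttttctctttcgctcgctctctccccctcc
The motif, searched on both strands, was found in 1 of the 3 hedgehog genes called lower and in 0.20% of 35116 promoter windows of the same length. A match is a description of the letters and not of binding.

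Genes of glycolysis and the hypoxia response were lower in KO. Through the feature opposite, 6 of 7 tested were called lower, with a median log2 fold change of -1.68, beside 18.5% lower among all features opposite coding genes; the count was 6 with the covariate and 4 in the fit of all 24 libraries. GAPDH, a glycolytic enzyme, was read through ENSG00000269968 (chr12:6537794-6538370) at 6950, 8389 and 9445 CPM in KO and 12290, 14240 and 18470 CPM in controls (-0.84 ± 0.11, adjusted p = 1.43e-06). ALDOA and ALDOC, the muscle-type and brain-type aldolases, had 7.44, 23.4 and 67.9 CPM and 0.36, 4.95 and 11.2 CPM in KO, against 115, 130 and 179 CPM and 18.8, 32.1 and 39.2 CPM in controls. Their log2 fold changes were -2.36 ± 0.45 (adjusted p = 0.00361, ALDOA named after its values were seen) and -2.53 ± 0.43 (adjusted p = 0.000152). ANKRD37, a hypoxia-induced gene of unclear function, had 15.0, 26.2 and 45.8 CPM in KO through UFSP2 and 68.7, 97.4 and 133 CPM in controls (-1.90 ± 0.25, adjusted p = 6.72e-06). P4HA2, a collagen prolyl hydroxylase subunit, had 11.5, 18.3 and 42.3 CPM in KO and 46.8, 65.9 and 82.1 CPM in controls (-1.68 ± 0.25). No KO library overlapped a control library for any of these 5 genes.

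Counts of 21 genes of this list under their own names gave 3 lower calls, ENO1 (-1.72), SLC2A1 (-1.53) and VEGFA (-1.39), and 1 higher, KDM3A (0.70). These encode enolase, the glucose transporter GLUT1, an angiogenic factor and a histone demethylase. VEGFA read from the other strand gave -1.67 ± 0.71 and passed no test (adjusted p = 0.125).

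The promoter windows of ALDOC (chr17:28576896-28577145, minus strand) and ANKRD37 (chr4:185396591-185396840, plus strand), from RefSeq on GRCh38.p14, are shown because they hold the core ACGTG of the hypoxia response element, in capitals.
ALDOC: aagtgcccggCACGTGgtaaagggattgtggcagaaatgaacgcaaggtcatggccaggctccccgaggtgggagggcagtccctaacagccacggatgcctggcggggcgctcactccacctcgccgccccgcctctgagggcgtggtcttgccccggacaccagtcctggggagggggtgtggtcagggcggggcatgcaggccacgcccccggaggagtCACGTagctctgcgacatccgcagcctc
ANKRD37: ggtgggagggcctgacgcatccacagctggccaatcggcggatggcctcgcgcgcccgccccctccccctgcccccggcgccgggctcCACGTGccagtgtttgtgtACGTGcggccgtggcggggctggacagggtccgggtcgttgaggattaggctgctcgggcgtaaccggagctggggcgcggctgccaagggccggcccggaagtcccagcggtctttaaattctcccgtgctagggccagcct
The core, searched on both strands over 250 bases, was found in 4 of the 6 lower hypoxia and glycolysis genes (ALDOA, ALDOC, ANKRD37 and GAPDH) and in 18.51% of 35116 promoter windows. Where the core stands as CACGTG it is read on both strands. In ALDOC the nearest core starts 28 bases before the transcript start and in ANKRD37 143 bases before it.

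Amino acid and one-carbon genes of the integrated stress response, which ATF4 controls when translation initiation is restrained, were lower in KO. Of 9 features that read 8 of these genes from the other strand, 7 were called lower, beside 18.5% of all features opposite coding genes. Their median was -1.58, and 6 were lower with the covariate and 4 in the fit of all 24 libraries. MTHFD2, a mitochondrial folate enzyme, had 11.3, 20.3 and 24.6 CPM in KO through ENSG00000264324 and 81.6, 130 and 177 CPM in controls (-2.81 ± 0.22, adjusted p = 3.32e-10), and -1.87 through a second feature, SLC4A5. SHMT2, the mitochondrial serine hydroxymethyltransferase, had 4.03, 8.59 and 11.9 CPM in KO and 25.0, 32.8 and 45.8 CPM in controls (-2.09 ± 0.30, adjusted p = 7.35e-06). PYCR1, which makes proline in mitochondria, had 48.4, 73.6 and 91.0 CPM in KO and 150, 188 and 295 CPM in controls (-1.56 ± 0.17, adjusted p = 1.24e-07). VLDLR, a lipoprotein and reelin receptor, and SLC7A5, a large amino acid transporter named after its values were seen, gave -1.58 and -2.15. The 15 genes of the list tested under own names gave 1 higher and 1 lower call. The motif TGATGNAA of ATF4 sites was found in none of the 4 windows held for the lower genes and in 3.14% of all windows.

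Cholesterol synthesis genes showed 4 lower calls of 6 features read from the other strand, beside 18.5% of all features opposite coding genes. These were 2 with the covariate and 1 in the fit of all 24 libraries. HMGCS1, an early synthase, had 1302, 1773 and 2059 CPM in KO and 1921, 2686 and 3079 CPM in controls, with overlap (-0.60 ± 0.14, adjusted p = 0.00179). SREBF2, the master transcription factor of the pathway, had 319, 397 and 505 CPM in KO through SREBF2-AS1 and 506, 599 and 659 CPM in controls (-0.56 ± 0.13, adjusted p = 0.00344; adjusted p = 0.130 with the covariate). INSIG1, a brake on SREBP processing, was lower by 0.90 under its own name (log2 fold change -0.90), the 1 call among 14 of these genes tested that way (median -0.04). The RefSeq window before SREBF2 (chr22:41832855-41833104, plus strand, GRCh38.p14) is shown because it holds the sterol response motif TCACNCCAC, in capitals, which 1 of 3 windows of the lower genes and 0.88% of all windows hold.
SREBF2: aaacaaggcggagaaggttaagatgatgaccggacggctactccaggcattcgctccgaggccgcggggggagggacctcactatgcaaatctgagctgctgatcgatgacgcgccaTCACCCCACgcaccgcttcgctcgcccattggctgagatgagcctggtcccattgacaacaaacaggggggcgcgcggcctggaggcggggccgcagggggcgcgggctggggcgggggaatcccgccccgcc

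Feedback genes of FGF and ERK signalling were lower in KO when read from the other strand. Through the feature opposite, 4 of 5 tested were called lower, beside 18.5% of all features opposite coding genes. The median log2 fold change was -1.43, and 4 were called lower both with the covariate and with counts summed per line. PHLDA1, an ERK-induced pleckstrin domain gene, had 19, 28.2 and 38.8 CPM in KO through PHLDA1-AS1 and 180, 214 and 275 CPM in controls (-2.97 ± 0.16, adjusted p = 7.98e-14). DUSP6, the ERK phosphatase that ERK itself induces, had 14.4, 26.9 and 43.1 CPM in KO through ENSG00000274021 and 147, 205 and 239 CPM in controls (-2.83 ± 0.21, adjusted p = 5.71e-10). Counts under DUSP6 itself gave -3.08 ± 0.38, so both strands were lower. CCND1, the G1 cyclin that mitogens induce, had 131, 160 and 202 CPM in KO through LTO1 and 392, 442 and 459 CPM in controls (-1.43 ± 0.13, adjusted p = 2.88e-09). FGFR1 fell by 0.69 through the feature opposite, and FGFR2 was higher by 2.42 under its own name. Under own names 13 genes of the list were tested, with 1 higher and 1 lower, FGFR2 and DUSP6, and a median of 0.41. The KO and control libraries of PHLDA1, DUSP6 and CCND1 did not overlap.

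Immediate early genes were lower in 2 of 4 features read from the other strand, beside 18.5% of all features opposite coding genes. NR4A1, an orphan nuclear receptor, had 32.5, 54.4 and 71.6 CPM in KO and 147, 196 and 244 CPM in controls (-1.92 ± 0.18, adjusted p = 1.14e-08), and IER2 had 396, 447 and 561 CPM in KO and 686, 762 and 988 CPM in controls (-0.82 ± 0.12, adjusted p = 1.74e-05). In the retinoic acid list 4 of 8 features were lower and 1 higher, beside 18.5% and 8.05% of all features opposite coding genes. CRABP1, a cytosolic retinoic acid binding protein, had 2720, 2870 and 3131 CPM in KO through ENSG00000279694 and 4909, 7559 and 9945 CPM in controls (-1.40 ± 0.14, adjusted p = 5.65e-08). NR2F1, a COUP-TF nuclear receptor of neural patterning, was higher through NR2F1-AS1 by 0.81 ± 0.14 and under its own name by 1.03 ± 0.14. STRA6, a retinol transporter, was lower on both readings, at -2.37 and -2.91. LEF1, a Wnt effector, had 65.5, 82.0 and 111 CPM in KO through LEF1-AS1 and 220, 285 and 309 CPM in controls (-1.70 ± 0.15, adjusted p = 1.41e-09), while 3 other Wnt features tested from the other strand were not called.

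**Figure D4:**
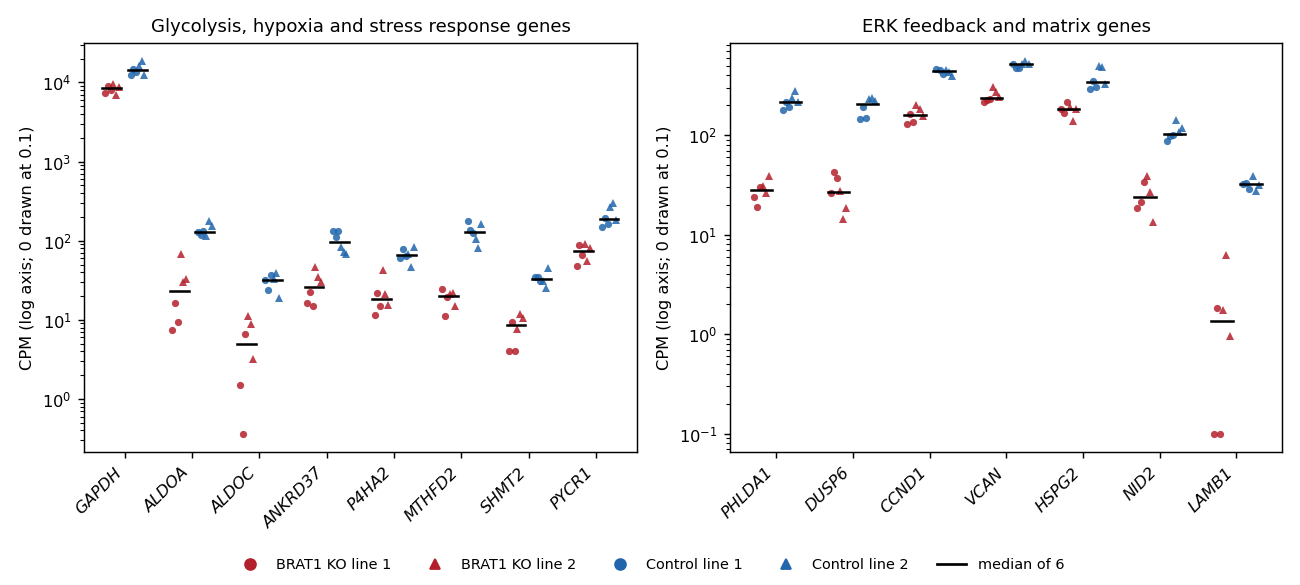
CPM on a log axis (a value of 0 is drawn at 0.1) of metabolic, stress, ERK feedback and matrix genes read through the feature on the other strand, in 6 BRAT1 KO (red, left of each pair) and 6 control (blue, right) libraries, circles for line 1 and triangles for line 2, bars at the median. For PHLDA1 and DUSP6 the KO medians are 28.2 and 26.9 CPM and the control medians 214 and 205 CPM, with no overlap of the groups for any gene drawn.

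Several extracellular matrix and mesenchymal genes read from the other strand were lower as well. Of 13 features that read matrix genes from the other strand, 9 were called lower, beside 18.5% of all features opposite coding genes. Their median was -1.07, and 6 were lower with the covariate and 5 in the fit of all 24 libraries. Under own names 21 matrix genes were tested, with 3 called higher and 1 lower and a median of 0.03. NID2, a basement membrane linker, had 13.4, 24.1 and 38.8 CPM in KO through RTRAF and 87.7, 104 and 141 CPM in controls (-2.11 ± 0.21, adjusted p = 1.29e-08). LAMB1 and LAMA4, laminin chains, had at most 6.27 and 2.2 CPM in KO and at least 27.4 and 5.03 CPM in controls. VCAN, a chondroitin sulfate proteoglycan, had 215, 237 and 308 CPM in KO and 470, 519 and 554 CPM in controls (-1.04 ± 0.12, adjusted p = 2.29e-07), and HSPG2, or perlecan, gave -1.07 ± 0.14. GPC3, a glypican read under its own name, went the other way, at 17.6, 34.2 and 64.7 CPM in KO and 0.90, 5.11 and 7.09 CPM in controls (2.96 ± 0.34; 2.60 with the covariate).

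ACTA2, smooth muscle actin, was lower through both features that read it, with 22.3, 37.4 and 45.9 CPM in KO and 120, 154 and 183 CPM in controls for ACTA2-AS1 (-2.13 ± 0.17, adjusted p = 5.51e-10) and -1.71 ± 0.21 for FAS. THY1, a surface glycoprotein of fibroblasts and neurons, had 51.3, 64.9 and 82.0 CPM in KO and 101, 126 and 145 CPM in controls (-0.97 ± 0.15). Of 6 features that read genes of the mesenchyme list from the other strand, 3 were called lower, beside 18.5% of all features opposite coding genes. Under own names 3 of 10 tested were lower, beside 10.7% of all features. The 3 features that read ACTA2 and THY1, 2 of the 5 mesenchyme markers, summed to 92.3, 121 and 131 CPM in KO and 269, 336 and 384 CPM in controls. Under their own names the 5 markers summed to 1.86, 11.4 and 18.8 CPM in KO and 6.82, 13.2 and 27.2 CPM in controls, and these overlapped. CDH1, epithelial cadherin, had 0, 0.33 and 1.49 CPM in KO through ENSG00000260798 and 17.7, 21.6 and 23.9 CPM in controls (-5.34 ± 0.47, adjusted p = 2.13e-09). KRT18, a keratin of simple epithelia, had 2.98, 15.0 and 19.6 CPM in KO through KRT8 and 44.2, 65.0 and 89.5 CPM in controls (-2.36 ± 0.27, adjusted p = 3.09e-07). GATA2, a factor of non-neural ectoderm and of neurons, was higher under its own name, at 8.78, 13.0 and 21.3 CPM in KO and 1.35, 1.68 and 4.2 CPM in controls (2.64 ± 0.42, adjusted p = 3.6e-05). Of the non-neural ectoderm list 4 features were tested from the other strand, with 2 lower, and 3 own names, with 1 higher and 1 lower; the KRT8 feature counts in both readings. At day 0 the features that read CDH1 and KRT18 averaged 558 and 2455 CPM in KO and 649 and 2182 CPM in controls, so both groups were far below the stem cell level at day 14 and KO the farther for these 2 genes.

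BRAT1 was studied early in DNA repair for its binding to BRCA1 and ATM. Of 9 features that read DNA repair genes from the other strand, 5 were called lower and 1 higher. Over all features opposite coding genes the shares were 18.5% and 8.05%. With the covariate the counts were 1 and 1. The edgeR fit of all 24 libraries called 0 lower, with 2 at an unadjusted p under 0.05, while DESeq2 on the 12 libraries called 5. FANCD2, the Fanconi anemia protein that is ubiquitinated at crosslinks, had 59.5, 69.2 and 78.4 CPM in KO through FANCD2OS and 104, 128 and 138 CPM in controls (-0.83 ± 0.15, adjusted p = 0.000173). ATM, read through C11orf65, fell by 0.94 on the log2 scale. TP53BP1, a repair pathway mediator, had 999, 1090 and 1207 CPM in KO through TUBGCP4 and 687, 740 and 788 CPM in controls (0.57 ± 0.11, adjusted p = 0.000319). For FANCD2, ATR and RIF1 the feature opposite was lower, at -0.83, -0.49 and -0.64, while counts under the gene's own name were higher, at 1.69, 1.71 and 1.44. None of these 3 own-name calls passed with the covariate, with counts summed per line or in the edgeR fit of all 24 libraries, in which 1 gene of the list was higher at an unadjusted p under 0.05; DESeq2 on the 12 libraries called 2. The same split was called for 16 pairs of a noncoding feature and its coding gene, against 4 with the reverse, among 75 pairs with both members called, and 55 pairs went in 1 direction.

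The p53 targets SESN1, a stress-induced inhibitor of growth signalling, and XPC, a damage sensor, gave -1.41 ± 0.20 (adjusted p = 7.75e-06) and -0.47 ± 0.12 (adjusted p = 0.00608). The XPC call was lost with the covariate (-0.35, adjusted p = 0.0867). Of 6 features that read cell cycle genes, 4 were lower, beside 18.5% of all features opposite coding genes, and 1 with the covariate. The 4 were CCND1 above, PLK1, a mitotic kinase (-0.81), CCNA2, the S-phase cyclin (-0.64), and CDK2, its kinase (-0.39). Of 24 cell cycle genes under own names edgeR called 0 and so did DESeq2, while 1 had an unadjusted p under 0.05 in edgeR.

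Of Integrator genes and their partners, 6 features were tested from the other strand, with 1 called lower. Under own names 14 were tested, with 2 higher, INTS11 and INIP, and 1 lower, BRAT1. These counts lay near the shares of 18.5% lower opposite coding genes and 11.0% higher over all features. INTS3, a subunit shared with the single-stranded DNA sensor complex, had 22.3, 25.2 and 31.1 CPM in KO through ENSG00000243613 and 35.0, 42.8 and 53.2 CPM in controls (-0.78 ± 0.20, adjusted p = 0.00521), and the second feature that reads it gave 0.56 and was not called. INTS11, the endonuclease that BRAT1 binds, was read under its own name at 96.6, 156 and 166 CPM in KO and 87.2, 108 and 115 CPM in controls (0.42 ± 0.15, adjusted p = 0.0449), and that call was kept in 5 of 25 alternative fits. INIP, which joins INTS3 in the sensor complex, gave 0.98 ± 0.27 (adjusted p = 0.0104), kept in 19 of 25 and lost with the covariate (0.74, adjusted p = 0.126). Among cleavage and polyadenylation genes read from the other strand, WDR33 was higher by 0.84 and CPSF4 lower at -0.84. The groups overlapped for both genes, and the CPSF4 call was lost with the covariate (-0.59, adjusted p = 0.173).

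Imprinted genes read under own names were higher in 7 of 13, beside 11.0% of all features. These were 5 with the covariate, 4 with counts summed per line and 1 in the fit of all 24 libraries. The feature MKRN3, named for a regulator of puberty timing, had 16.9, 22.3 and 35.4 CPM in KO and 0.27, 3.70 and 6.46 CPM in controls (2.86 ± 0.41, adjusted p = 7.25e-06). The exons opposite it belong to ENSG00000260978, so these counts are not taken as MKRN3 mRNA. DLK1, a Notch-family ligand, had 78.8, 117 and 161 CPM in KO and 36.8, 52.1 and 63.9 CPM in controls (1.15 ± 0.17, and 0.77 with the covariate). IGF2 was the 1 member called lower, at -2.13. Of 15 mitochondrially encoded genes, MT-ND6 alone was called, at 77920, 85170 and 93250 CPM in KO and 51970, 58400 and 62180 CPM in controls (0.54 ± 0.10, adjusted p = 0.000134). MT-ND6 is a subunit of respiratory complex I encoded on the strand opposite most mitochondrial genes. The feature of that name held 7.13% of all counts of the 12 libraries, and the call was lost with counts summed per line. Because counts mostly read the opposite strand, this feature is not taken as MT-ND6 mRNA.

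**Figure D5:**
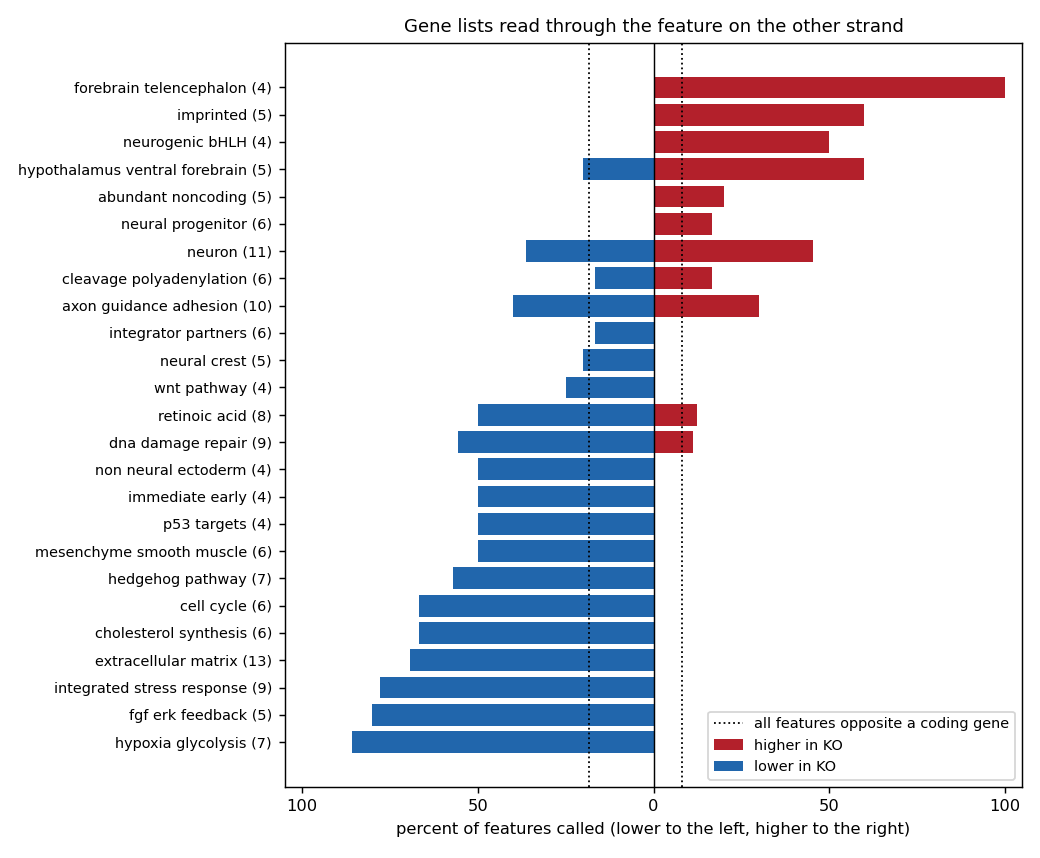
Percent of features called lower (blue, to the left) and higher (red, to the right) in BRAT1 KO for the 25 gene lists with at least 4 features read through the other strand, with the number tested in brackets. Dotted lines mark the 18.5% lower and 8.05% higher among all 3329 features opposite coding genes, and the hypoxia and glycolysis, ERK feedback and integrated stress response lists lie farthest to the lower side.

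The 2 KO lines did not change by the same amount. Among the 1218 features called lower in KO, KO line 1 averaged below KO line 2 in 759 and above it in 458. Among the 1256 called higher, line 1 averaged above line 2 in 674 and below it in 582. Over all 11408 features tested, line 1 averaged below line 2 in 6108 and above it in 5299. BRAT1, PAX8, TLX3, HOXB3 and HHIP were each lower in KO line 1 than in KO line 2. Where 1 gene was read through several features the calls went together: of 34 genes with at least 2 called features, 33 had all calls in 1 direction. Of all 288 genes read through at least 2 tested features, 176 had log2 fold changes of 1 sign, and of 1155 pairs of a noncoding feature and its coding gene 600 had the same sign.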

How the data were processed

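Per the submitters' processing notes, bcl2fastq 2.20.0, STAR 2.7.9a, Subread 2.0.1 with featureCounts, DESeq2 1.34.0 and R 3.5.1 were used with GRCh38; their annotation release and strand setting are not stated in those notes. The authors deposited raw counts for 61248 features in each library, which were used unchanged. The 12 day 14 libraries were fitted in edgeR 4.0.16 (R 4.3.3, limma 3.58.1) with TMM scaling, filterByExpr and glmQLFTest on genotype alone. The fit was tested on simulated data. DESeq2 1.42.0 and 24 other fits were alternatives. Features were matched to GENCODE release 29 (57039 matched, 4209 not). An opposite gene was named where at least 100 bases of exon overlap lay at least 90% in that gene. In all, 6 motifs were searched in RefSeq windows 250 bases before each start. Of these, CCGGAAGT for the ERK feedback list and TAATTA for the forebrain list were found in 0 of the 2 windows held for each list.

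The replicate letters did not pair libraries, so none was blocked. Named features were the 12 largest changes in each direction opposite a coding gene, 6 in each direction with no exon opposite (at a mean of 5 or more CPM, with both KO lines on 1 side of both control lines), up to 4 members per list with the smallest adjusted p, and cell type markers; any other was chosen after its values were seen, including every list member named beyond those. The members and the 36 lists were chosen with earlier results of these data known. At 2228736 to 3726227 counts a library, 10 CPM is 22.3 to 37.3 counts, so counting limits the precision of low features. Results for some genes are not reported here.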

Additional observations from a re-analysis of the deposited data

Results flagged for a closer look

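In 24 cases 1 library of a group of 6 lay far from the other 5 for a called feature. Chance alone gives such a gap in about 1 in 20 groups, and 312 groups were examined. In KO libraries these were CAPN6 (132 CPM, line 1 replicate C), ENSG00000273055 reading LAMB1 (6.27 CPM, line 2 B), EGFLAM-AS1 (6.59 CPM, line 2 B), LINC01257 (0.94 CPM, line 2 B), EGR2 (4.83 CPM, line 1 C), APCDD1 (3.35 CPM, line 1 A), P4HA2-AS1 (42.3 CPM, line 2 A), ENSG00000258554 reading CDK2 (638 CPM, line 1 B), NKX2-2 (28.7 CPM, line 1 C) and ENSG00000260466 reading SLC7A5 (12.7 CPM, line 2 C). In control libraries they were METAP1D (3.00 CPM, line 2 A), NKX2-1-AS1 (28.1 CPM, line 2 A), BHLHE22-AS1 (7.24 CPM, line 1 B), RELN (3.55 CPM, line 1 C), WNT1 (18.0 CPM, line 2 A), SGCA (22.8 CPM, line 1 A), SFRP1 (8.83 CPM, line 2 B), NR2F1-AS1 (262 CPM, line 2 B), FANCA (240 CPM, line 2 C), INTS11 (87.2 CPM, line 1 A), SFT2D3 reading WDR33 (96.0 CPM, line 2 C), PEG10 (26.9 CPM, line 2 C), MEG3 (11.1 CPM, line 1 A) and ENSG00000279437 reading POU3F4 (304 CPM, line 2 C).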

How the results depend on the processing

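The 2474 called features became 1574 (833 higher, 741 lower) with the wrong-strand covariate, 1552 without control line 1, 1266 without control line 2 and 241 in the fit of all 24 libraries, which called 57 higher and 184 lower; features opposite a coding gene called lower, 616, became 351, 402, 376 and 113. Leaving out 1 library gave 2113 to 2551 calls, 527 to 703 lower opposite coding genes, and -2.72 to -2.28 for the log2 fold change of BRAT1. BRAT1 gave -2.64 (adjusted p = 0.354) with counts summed per line, and -2.45 and -2.61 (adjusted p = 0.0914 and 0.0834) without control line 1 and line 2. It gave -1.72 without KO line 1 and -4.41 without KO line 2, both called. The wrong-strand difference was 0.134 (exact permutation p = 0.110) over the 19 pairs at 5 times the count minimum. The cause of these shifts was not tested. Replicate letters did not pair the libraries (same-letter correlation -0.22 to 0.13, 1 of 18 pairs over 0.1), and a replicate block gave 2256 calls, 588 lower opposite coding genes and -2.46 for BRAT1. DESeq2 called 3316, and counts summed per line 1664 (697 higher, 967 lower). DESeq2 and no low-count filter moved the median log2 fold change of all features to 0.24 and 0.18. Of 157 named and called features, 62 were called under every alternative that tested them and 0 changed direction.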
